A study of Mus musculus with 800 samples.

Results

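The replication-dependent histone genes, annotated in mouse under symbols that begin with Hist1h to Hist4h, were followed through 800 single-cell libraries from the E15.5 embryonic retina. All 70 symbols of this form in the count table were considered. Those with at least 1 count in at least 1% of the retained cells were taken as members, where a retained cell has at most 20% of its counts on mitochondrial genes. This left 44 of the 70 symbols, among 49585 gene rows in all: 5 of 6 for H1, 15 of 20 for H2a, 14 of 19 for H2b, 3 of 12 for H3 and 7 of 13 for H4. Of the 26 others, 10 had no count in any retained cell. Nearest the threshold, Hist1h2ad, Hist1h4n, Hist1h2ao and Hist1h4f were inside with 7 cells each, and Hist1h2bf was outside with 6 cells.

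The cells came from 30 C57BL/6 retinas of a Sert-Cre line, from embryos of dams aged 12 to 30 weeks, dissociated together with papain and sorted by fluorescence into 400 Tomato+ and 400 Tomato- cells, each profiled with SmartSeq2. Both groups share the strain, the age and the line, and differ in whether the cell carried the Tomato label. Cre in such a line follows Slc6a4 (Sert), the serotonin transporter, which in the embryonic retina is known from a subset of retinal ganglion cells. The labels give neither the sort gate nor the animal of each cell. Each group is therefore a single pool, no test between groups is possible, and every interval below is an exact 95% interval that covers counting error only. The title of each cell holds a number, 1 to 10 in Tomato+ cells and 11 to 20 in Tomato- cells, and the spread between these title numbers is given as a spread within a pool.

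Nucleosomes wrap DNA around a core of H2a, H2b, H3 and H4, and H1 binds the linker DNA between them. Cells make most of this protein while DNA is copied, from clustered genes without introns whose mRNA ends in a conserved stem-loop instead of a poly(A) tail. The stem-loop is bound by Slbp, the stem-loop binding protein, and the mRNA is degraded when replication stops. A few of these genes are also known to give polyadenylated transcripts, which read past the stem-loop and persist in cells that have left the cycle. SmartSeq2 primes on poly(A), so the values below describe the histone transcripts that this priming captures.

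The 3′ ends show how alike the members are. In the GENCODE M21 annotation (GRCm38, mm10) 38 members lie on chromosome 13, 3 on chromosome 11, 2 on chromosome 3 and 1 on chromosome 6. In 41 of the 44 the annotated transcript has 1 exon, 41 are protein coding and 3 are pseudogenes. A perfect stem-loop of 6 paired bases around a loop of 4 was found in 29 members, and 17 of these carried the same 16 letters. In 11 others, including the 3 pseudogenes, the annotation left no stretch after a coding sequence long enough to search. A stem-loop could not be found in those 11, whether or not the gene has one. The members below carry the results that follow, and the capitals mark the stem-loop within 5 flanking bases on each side, 5′ to 3′ on the gene's strand.
Hist3h2a: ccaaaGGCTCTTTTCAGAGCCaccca
Hist3h2ba: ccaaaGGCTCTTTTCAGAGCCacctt
Hist1h1e: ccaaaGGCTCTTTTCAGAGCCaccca
Hist1h2ae: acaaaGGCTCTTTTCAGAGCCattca
Hist2h2ac: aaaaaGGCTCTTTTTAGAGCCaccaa
Hist1h2bj: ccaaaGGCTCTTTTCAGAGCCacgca
Hist1h4d: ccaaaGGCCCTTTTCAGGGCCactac
Hist1h4i: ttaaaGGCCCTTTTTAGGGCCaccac
The annotated transcripts run on past the loop for very different lengths: 1643 bases in Hist3h2a (chr11:58954685-58956830, plus strand), 1153 in Hist1h1e (chr13:23620629-23622558, minus strand) and 770 in Hist1h4d (chr13:23581598-23582735, plus strand). The stretch was shorter in Hist3h2ba (chr11:58948920-58949533, plus strand) and Hist1h2ae (chr13:23570517-23571220, minus strand). It was 57 bases in Hist2h2ac (chr3:96220361-96220880, minus strand) and 23 in Hist1h2bj (chr13:22043214-22043676, plus strand). Of the 29 members with a stem-loop, 15 had at least 100 annotated bases past it and 14 had fewer.

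Several members cannot be cleanly separated by counting. In 18 of the 44, more than 50% of the 50-base windows of the transcript also occur in a transcript of another of the 70 symbols. Hist1h2bj (59.4%) is an example. Windows shared with genes outside the 70 symbols were not searched, so the shares below leave those out. A further gene overlaps 4 members on the same strand and 15 on the opposite strand, and the strand setting of the authors' counting is not given in the sources used here. Values of those members are uncertain for this reason, and sums over a histone type are less exposed to reads that move between copies of that type. Hist3h2a shares 2.00% of its windows, Hist1h4d 10.2% and Hist3h2ba 22.1%. The shares were higher in Hist1h1e (32%), Hist2h2ac (38.6%) and Hist1h2ae (43.2%), and Hist1h1e overlaps Hist1h2be and Gm11398 on its own strand.

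Promoter sequence from 250 bases before to 50 after the annotated start was found in RefSeq (GRCm38.p6) for 39 members. The pattern CCAAT, searched on both strands, occurred in 34 of them (87.2%, against 37.4% of all 32841 promoters). TATAAA occurred in 23 (58.97% against 13.6%), the octamer ATTTGCAT in 10 (25.6% against 1.74%) and TTTCCCGC in none (against 1.07%). The promoters of Hist3h2a (chr11:58954435-58954734, plus strand), Hist3h2ba (chr11:58948661-58948960, plus strand) and Hist2h2ac (chr3:96220831-96221130, minus strand) are shown because the first pair belongs to the members kept in neurons and the last was nearly lost there. Capitals mark each match.
Hist3h2a: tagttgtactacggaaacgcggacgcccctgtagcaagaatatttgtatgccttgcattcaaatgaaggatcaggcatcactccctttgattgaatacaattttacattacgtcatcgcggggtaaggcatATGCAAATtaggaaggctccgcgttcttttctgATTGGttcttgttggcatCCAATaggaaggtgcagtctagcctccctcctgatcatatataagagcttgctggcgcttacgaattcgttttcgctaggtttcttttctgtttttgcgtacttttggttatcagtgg
Hist3h2ba: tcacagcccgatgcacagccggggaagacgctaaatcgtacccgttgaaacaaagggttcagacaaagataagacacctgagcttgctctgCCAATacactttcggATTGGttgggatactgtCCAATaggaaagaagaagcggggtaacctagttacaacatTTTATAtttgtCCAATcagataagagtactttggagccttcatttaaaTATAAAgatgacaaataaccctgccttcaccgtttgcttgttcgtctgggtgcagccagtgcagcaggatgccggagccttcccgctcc
Hist2h2ac: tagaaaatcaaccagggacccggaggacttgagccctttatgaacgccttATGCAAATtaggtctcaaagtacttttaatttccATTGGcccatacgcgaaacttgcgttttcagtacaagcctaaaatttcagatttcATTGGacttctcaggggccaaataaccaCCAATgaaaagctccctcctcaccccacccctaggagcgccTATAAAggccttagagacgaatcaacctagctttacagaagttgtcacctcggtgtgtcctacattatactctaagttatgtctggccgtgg
These windows held 2, 4 and 3 matches to CCAAT and 0, 2 and 1 to TATAAA, in the order printed. The octamer was matched once in Hist3h2a, 0 times in Hist3h2ba and once in Hist2h2ac. All 3 windows thus hold elements shared by most members, and the letters searched do not separate the Hist3 genes from Hist2h2ac.

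The mitochondrial filter left 81.75% of the Tomato+ and 90.5% of the Tomato- cells, 689 of 800 together. Their summed counts were 86301166 and 93484125, and the median counts per cell were 271789 (9653 to 644293) and 243410 (16826 to 689788). Pan-neuronal markers (Stmn2, Stmn3, Gap43, Nefm, Nefl, Sncg, Mapt and Snap25) summed to 21932 CPM (counts divided by all counts of the same cells, scaled to 1e6) in Tomato+ and 8987 in Tomato- cells, and 5 of 5 progenitor markers were at least 2-fold lower in Tomato+ cells. Markers of other cell types were uneven. Of the erythroid list 5 of 8 genes could be compared, and together they summed to 1711 CPM in Tomato+ and 4.06 in Tomato- cells. Of the microglia or macrophage list 6 of 7 could be compared, and they summed to 4.04 and 147.6 CPM. The 2 Tomato- cells with 3 or more microglia markers at 5 or more counts were among the retained cells.

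**Figure D1:**
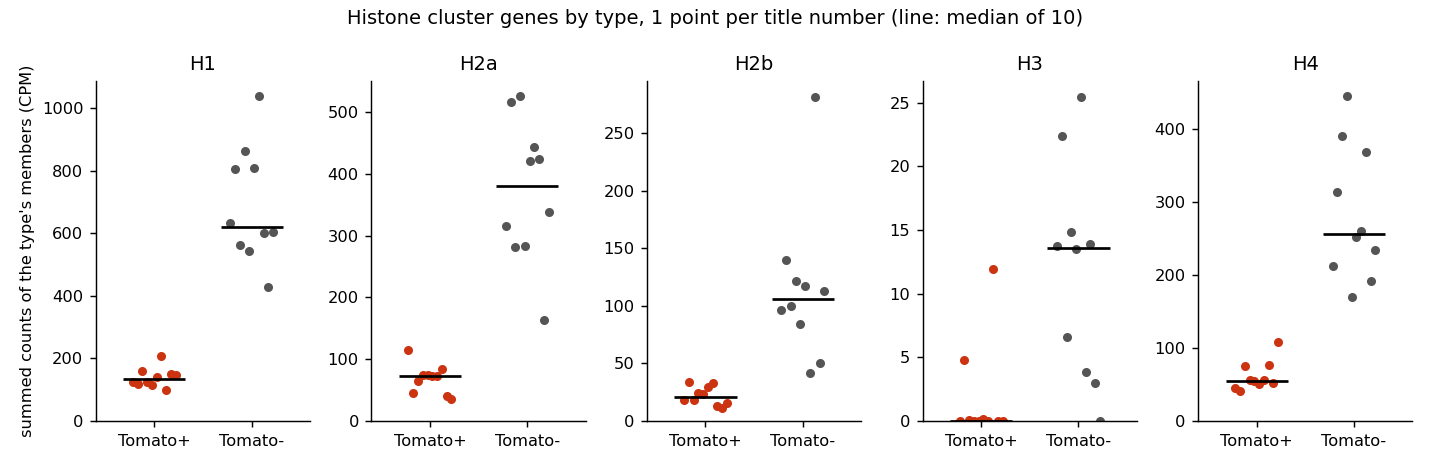
Summed CPM of the members of each histone type in Tomato+ and Tomato- cells, with 1 panel per type on its own linear axis, 1 point per title number and a line at the median of 10. The title numbers of the groups do not overlap for H1, H2a, H2b and H4 and overlap for H3.

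Histone transcripts were 5.12-fold more abundant in Tomato- than in Tomato+ cells, and 4 of the 5 types showed this between every pair of title numbers. The summed level was 289.4 CPM (285.9 to 293.1) for Tomato+ and 1481 (1473 to 1489) for Tomato- cells. Tomato+ title numbers ran from 241.8 to 368.6 CPM with a median of 289.6, and Tomato- title numbers from 836 to 1970 with a median of 1482, so the groups did not overlap. The log2 ratio of Tomato+ over Tomato-, with 10 CPM added to both, was -2.32, against a pooled SD between title numbers of 0.29. Without the 2 cells with microglia markers the Tomato- value was 1475 CPM.

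By type, the linker histones H1 stood at 138.3 CPM (Tomato+) and 695.6 CPM (Tomato-), 5.03-fold apart. Core histones H2a gave 68.3 and 374.9 CPM, which is 5.49-fold more in Tomato- cells. For H2b the values were 22.4 and 114.1 CPM (5.09-fold), and for H4 they were 59.04 and 285.2 CPM (4.83-fold). The 3 H3 members were scarce at 1.46 and 11.3 CPM. H3 had no count in 6 of the 10 Tomato+ title numbers, and its ranges, 0 to 12.0 and 0 to 25.4 CPM, overlapped. The 4 other types thus differed by similar folds.

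The makeup of the histone counts was close between the groups. H1 held 47.8% of member counts in Tomato+ and 46.96% in Tomato- cells, H2a 23.6% and 25.3%, H4 20.4% and 19.3%, H2b 7.74% and 7.71%, and H3 0.50% and 0.76%. Within the types the genes differed. Hist1h1e took 41.9% of Tomato+ and 33.2% of Tomato- member counts. Hist3h2a held the next share in Tomato+ cells, 17.7%, while in Tomato- cells the next was Hist1h4d with 15.98%.

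Among single members, 13 of 44 were at least 2-fold lower in Tomato+ cells on the scale with 10 CPM added, where 4.5% of 16735 genes were, and 0 were at least 2-fold higher, where 1.92% of genes were. The median log2 ratio over members was -0.51, against -0.02 over all genes. The 13 were all 5 H1 genes, 4 of 15 H2a, 2 of 14 H2b, 0 of 3 H3 and 2 of 7 H4 genes, and in 11 members every Tomato+ title number lay below every Tomato- one, where 2.06% of all genes did. A member under 10 CPM in both groups cannot reach 2-fold on this scale. Some members passed the 1% threshold mainly through Tomato- cells, such as Hist1h3b with 26 of its 27 cells, so these counts are a description.

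Hist1h1e, a somatic linker histone, gave 121.4 CPM in Tomato+ cells (title numbers 54.9 to 152.8, median 121.04) and 491 CPM in Tomato- cells (319.3 to 740, median 461). Every Tomato- title number lay above every Tomato+ one, and the fold was 4.05. Hist1h1d gave 0.070 CPM, from 6 counts, and 34.7 CPM, a 499-fold difference and the widest among the H1 genes. Hist1h1b gave 1.14 and 68.4 CPM, Hist1h1a 0.30 and 25.7 CPM, and Hist1h1c 15.4 and 75.7 CPM. The H1 genes other than Hist1h1e and Hist1h1c thus had nearly all of their CPM in Tomato- cells.

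Of the core histones, Hist1h2ae gave 7.54 CPM in Tomato+ (1.79 to 19.7 by title number) and 203.4 CPM in Tomato- cells (56.8 to 346.5), 26.97-fold more and without overlap. Hist1h4d gave 47.7 CPM (25.1 to 108.05) and 236.7 CPM (139.8 to 371.8), 4.97-fold more and without overlap. Hist2h2ac, encoded on chromosome 3, gave 6.82 and 62.1 CPM, and Hist1h2bj 1.52 and 35.7 CPM. The Hist3 genes on chromosome 11 stood apart from these. Hist3h2a gave 51.3 CPM in Tomato+ and 42.3 in Tomato- cells, a log2 ratio of 0.23 with an SD of 0.46, and its title numbers overlapped. For Hist3h2ba the values were 9.36 and 14.2 CPM.

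In Tomato- cells, cycling and post-mitotic cells could be compared within the pool. Mcm5, a subunit of the replicative helicase, and Top2a, a topoisomerase of late S phase to mitosis, marked cycling cells, taken as those with 5 or more counts of either gene. Fgf15 is a known gene of retinal progenitors. Neurons were cells with under 5 counts of Fgf15, Mcm5 and Top2a and with 5 or more counts of at least 4 of the 8 pan-neuronal markers. By these rules 70.4% of the Tomato- cells were cycling and 72 cells (19.9%) were neurons, and the median counts per cell were 232776 and 302020. The cycling class is broad: 68.6% of it also passed the neuronal markers, 66.3% had 5 or more counts of Fgf15, and 54.1% had 100 or more counts of Top2a. The neuron class keeps some transcripts of the cycle: Aurkb, a mitotic kinase, reached 5 counts in 0 of 72 neurons (up to 4.99%) and in 22.4% of cycling cells, whereas Mki67 reached it in 20.8% of neurons.

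**Figure D2:**
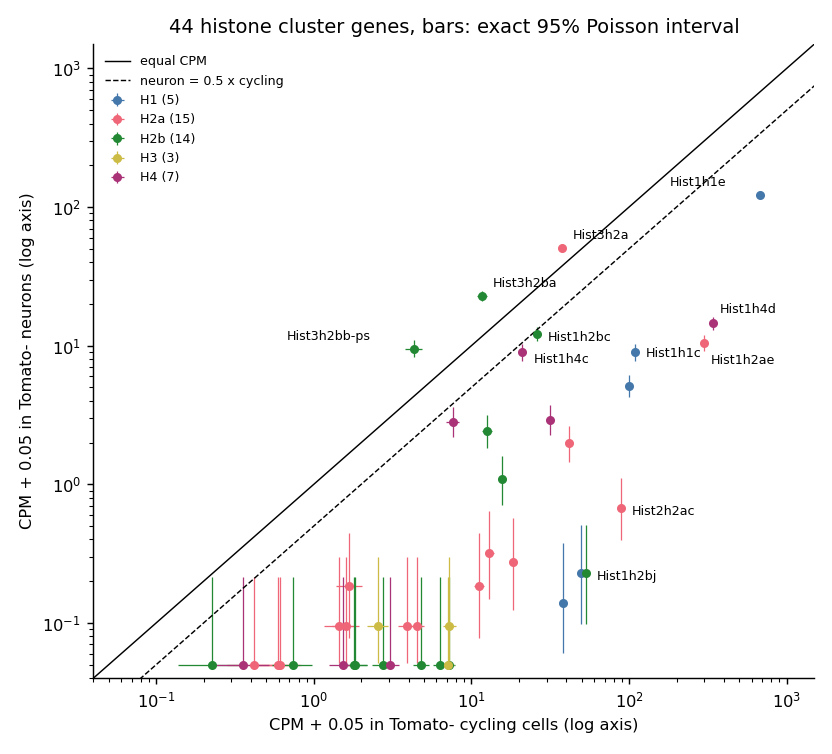
Each member's CPM in Tomato- cycling cells (horizontal) and Tomato- neurons (vertical), on log axes with a small constant added, coloured by histone type, with exact 95% Poisson intervals and lines at equal CPM and at 0.5. Hist3h2a, Hist3h2ba and the pseudogene Hist3h2bb-ps lie above the line of equal CPM, and the 41 other members lie below it.

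Cycling cells held 7.44-fold more histone transcripts than neurons, 2068 CPM (2057 to 2079) against 278.02 CPM (271.1 to 285.03). Cycling cells ran from 1135 to 2698 CPM between title numbers and neurons from 94.02 to 450.4, with 4 to 14 neurons in a title number. The cycling value was the higher in 10 of 10 title numbers, with log2 ratios from 1.74 to 4.28. These cells are part of the Tomato- pool above, so this comparison shares its cells with the Tomato+ against Tomato- one. The microglia or macrophage markers summed to 100.2 CPM in cycling cells and 1.797 in neurons, and without the 1 cycling cell that held 3 or more of them at 5 counts the members summed to 2055 CPM.

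The types separated in this comparison with Tomato- neurons. H4 was 14-fold higher in cycling cells (406 against 28.98 CPM), H2a 8.07-fold (523 against 64.8 CPM) and H1 7.15-fold (974 against 136.2 CPM), each in 10 of 10 title numbers. H2b was 3.09-fold higher (148.4 against 47.99 CPM), and in 2 of 10 title numbers the neuron value was the higher. H3 gave 16.8 CPM in cycling cells and 2 counts, or 0.09 CPM, in neurons. In neurons H2b accordingly took 17.3% of member counts and H4 10.4%, against 7.18% and 19.6% in cycling cells. Of the 47.99 CPM of H2b in neurons, 9.48 CPM was the pseudogene Hist3h2bb-ps, all from 1 cell. That cell raises the H2b share in neurons and lowers the H2b fold.

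Of the 44 members, 15 were at least 2-fold higher in cycling cells, where 6.64% of genes were, and 0 were at least 2-fold lower, where 3.61% of genes were. The median log2 ratio was 0.63 over members and 0.025 over all genes, and 16 members were higher in cycling cells in every title number, where 3.5% of all genes were. The 15 comprised 5 H1, 6 H2a, 2 H2b, 0 H3 and 2 H4 genes. Some members passed the 1% threshold mainly through cycling cells, where they are high. Hist1h3b, for example, was counted in 27 retained cells, of which 26 were Tomato- cycling cells. Some of the 16 are also scarce: Hist1h2af rests on 97 counts in cycling cells and 1 in neurons. The counts of members and their median are a description for this reason.

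The H1 genes differed from each other in what neurons kept. Hist1h1e gave 677 CPM in cycling cells (415 to 1005 by title number) and 121.9 in neurons (1.07 to 193.7), a fold of 5.55. Its transcripts reached 5 counts in 63.5% of cycling cells and in 43.1% of neurons (31.4% to 55.3%). Hist1h1c gave 109.5 and 8.94 CPM, Hist1h1d 49.7 and 0.18 CPM, and Hist1h1a 38.3 and 0.09 CPM. Hist1h1b gave 100.04 and 5.08 CPM, and 91.2% of its counts in neurons came from 1 cell. Of the H1 transcripts in neurons, then, Hist1h1e supplied most.

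Hist2h2ac showed one of the widest differences among the core histones, with 89.1 CPM in cycling cells (36.4 to 182.8) and 0.63 CPM, from 14 counts, in neurons, where 7 of 10 title numbers had none. Hist1h2bj was 295.4-fold higher (53.1 against 0.18 CPM) and reached 5 counts in 12.5% of cycling cells and in 0 of 72 neurons (up to 4.99%). Hist1h2ae was 28.5-fold higher, at 298.1 CPM (85.4 to 468) against 10.5 (0 to 35.7). Hist1h4d was 23.6-fold higher, at 340.8 CPM (199.5 to 557) against 14.4 (0.46 to 72.03), and Hist1h4i gave 31.5 and 2.88 CPM. Among the H3 genes, Hist1h3b gave 7.06 CPM in cycling cells and no count in neurons, and Hist1h3e gave 7.21 and 0.045 CPM. Of the further H2a and H2b genes, Hist1h2ab gave 41.6 and 1.93 CPM, Hist1h2an 18.3 and 0.22, Hist1h2bm 15.6 and 1.03, Hist1h2ak 12.97 and 0.27, and Hist1h2ai 11.1 and 0.13 CPM. Hist1h2bc gave 26.1 and 12.1 CPM and Hist1h4c 21.03 and 8.90 CPM. Apart from these and the 3 Hist3 members described below, the remaining members lay between 0.18 CPM (Hist1h2bl) and 12.5 CPM (Hist2h2be) in cycling cells and between 0 and 2.79 CPM (Hist1h4h) in neurons.

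**Figure D3:**
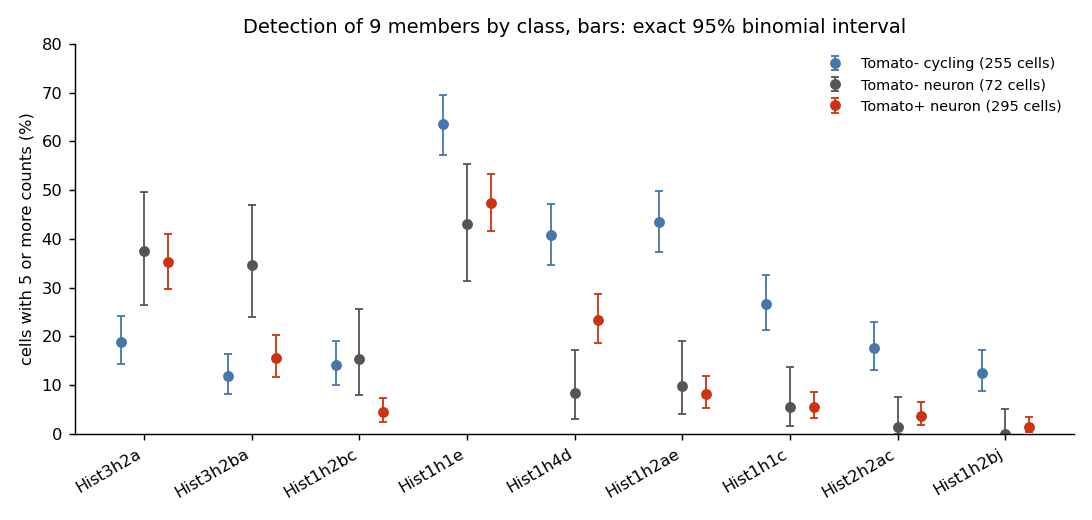
Percent of cells with 5 or more counts of 9 members in Tomato- cycling cells, Tomato- neurons and Tomato+ neurons, with exact 95% intervals. Hist3h2a and Hist3h2ba reach higher shares in Tomato- neurons than in cycling cells, and Hist1h2ae, Hist1h4d and Hist2h2ac reach lower ones.

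Hist3h2a and Hist3h2ba were kept in neurons. Kept was defined as a neuron CPM of at least 0.5 of the cycling CPM with 5 or more counts in at least 5% of Tomato- neurons. That rule uses the Tomato- contrast, so its values there are a description. Hist3h2a gave 50.8 CPM (47.9 to 53.8) in Tomato- neurons and 37.3 (35.8 to 38.8) in cycling cells, a ratio of 1.36, and reached 5 counts in 37.5% and 18.8% of cells. By title number it ran from 2.81 to 159.4 CPM in neurons and from 13.4 to 58.2 in cycling cells, and neurons were the higher in 6 of 10. For Hist3h2ba the values were 22.8 CPM (20.8 to 24.9) and 11.6 (10.7 to 12.4), a ratio of 1.97, with 34.7% and 11.8% of cells at 5 counts. Its neuron values ran from 0 to 65.9 CPM, with 2 title numbers at 0, and again neurons were the higher in 6 of 10. Both ranges overlap widely, so the order of the 2 classes is not larger than the spread between title numbers.

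Nearest outside that rule, Hist1h2bc had 15.3% of neurons at 5 counts and a ratio of 0.46. Hist1h4c had a ratio of 0.42 and 4.17% of neurons. Hist1h1e had 43.1% of neurons but a ratio of 0.18. The pseudogene Hist3h2bb-ps had a ratio of 2.24 that rested on 1 neuron. For comparison, the neuron over cycling ratio had a median of 0.038 over 15 genes of G2 and mitosis (up to 0.12) and of 0.13 over 18 genes of S phase (up to 0.38). Over 11 histone variants outside the clusters, several of which are known to be made independently of replication, the median was 0.30 and the highest were H2afy2 (1.34) and H2afj (1.14). The pan-neuronal markers that define the class had a median of 2.72.

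The Tomato+ neurons, 90.2% of the Tomato+ cells by the same rule, were not used to choose these members. Hist3h2a gave 51.5 CPM there (49.9 to 53.2), 30.4 to 82.6 by title number, with 35.3% of cells at 5 counts. That level was within counting error of the 50.8 CPM of Tomato- neurons. Hist3h2ba gave 8.44 CPM (7.81 to 9.12), with 15.6% of cells at 5 counts, lower than in Tomato- neurons and below the 11.6 CPM of Tomato- cycling cells. Its title numbers overlapped between the pools, 3.99 to 14.1 CPM in Tomato+ and 0 to 65.9 in Tomato- neurons, and the log2 ratio of -0.83 had an SD of 0.73, short of 2-fold on that scale. In the 57 Tomato- neurons with under 5 counts of Mki67, Hist3h2a gave 50.8 CPM and Hist3h2ba 22.3, against 50.7 and 24.6 CPM in the 15 others.

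Both genes lie near each other on chromosome 11, and their detection was compared cell by cell. In Tomato- neurons, 54.1% of the 37 cells with a count of Hist3h2a also had Hist3h2ba, against 31.4% of the 35 cells without. In Tomato+ neurons these shares were 34.9% and 32.2%, and in Tomato- cycling cells 32.3% and 20%. Trim17, which overlaps Hist3h2a on the same strand, had no count in the 72 Tomato- neurons, and 8 Tomato+ neurons had one. A gene on the opposite strand, Gm44313, also overlaps Hist3h2a.

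Neurons of the 2 pools agreed within counting error in their summed histone transcripts, 277.3 CPM (273.6 to 281.04) for Tomato+ and 278.02 (271.1 to 285.03) for Tomato- cells, with title numbers from 166.96 to 381.1 and from 94.02 to 450.4. The log2 ratio was -0.0036, with an SD of 0.53 between title numbers. H1 gave 131.7 and 136.2 CPM and H2a 63.5 and 64.8 CPM. H4 was higher in Tomato+ neurons (58.2 against 28.98 CPM) and H2b lower (22.2 against 47.99 CPM), and for both the title numbers overlapped. Of that Tomato- H2b value, 9.48 CPM was Hist3h2bb-ps from 1 cell. Of the members, 1 was at least 2-fold higher, where 1.4% of genes were, and 0 were lower, where 1.71% were. It was Hist1h4d, at 47.1 CPM in Tomato+ and 14.4 in Tomato- neurons (3.26-fold), in 23.4% and 8.33% of cells, and its title numbers overlapped.

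Other markers differed between these neuron classes. The erythroid list summed to 1832 CPM in Tomato+ and 6.25 in Tomato- neurons, and Mki67 to 4.68 and 53.2 CPM. In the 260 Tomato+ neurons without any erythroid marker at 5 counts, members summed to 270.7 CPM, Hist3h2a gave 52.3 and Hist1h4d 49.7 CPM. In the 57 Tomato- neurons with under 5 counts of Mki67 they summed to 266.7 CPM. The amacrine or horizontal list, with 5 of 9 genes lower in Tomato+ neurons, also differed, and its part in the values of Hist3h2ba and Hist1h4d was not tested.

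Within the Tomato- cells, histone level differed with how much Top2a a cell held. Cells with under 5 counts of Top2a summed to 296.99 CPM of members, and those with 5 to under 10 to 350.7 CPM (33 cells). The next bands, from 10, 20 and 50 counts, gave 419, 322.7 and 448 CPM. The level was 1051 CPM from 100 to under 200 counts (17 cells), 2650 from 200 to under 500 (49 cells) and 4217 from 500 upward (72 cells). The median per cell stayed between 215.7 and 511 CPM up to 200 counts and was 2081 and 4222 CPM in the last 2 bands. The higher levels lay above 100 counts of Top2a, and the median number of neuronal markers at 5 counts went from 7 of 8 to 4 over the same bands.

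**Figure D4:**
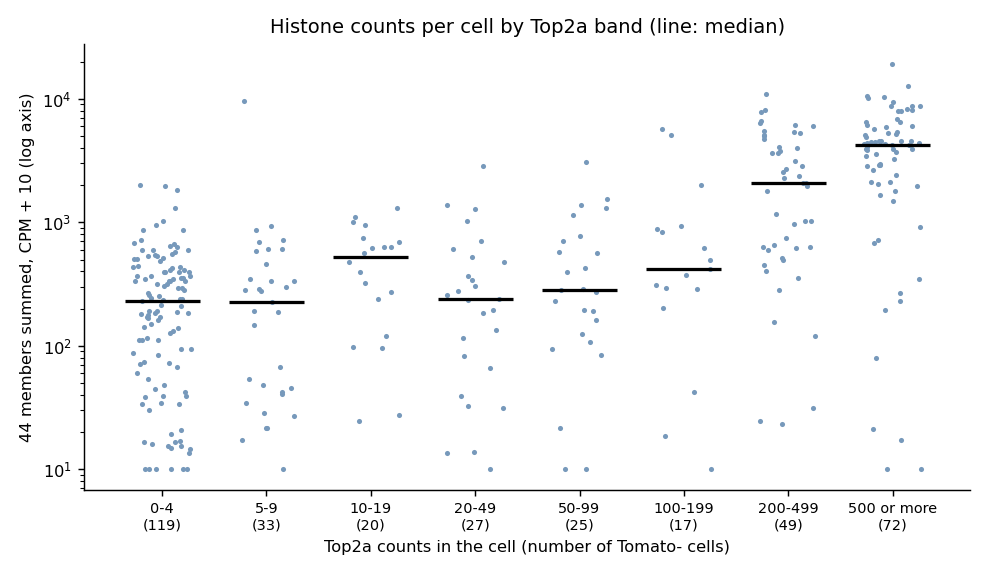
CPM of the 44 members summed in each Tomato- cell (log axis, with 10 CPM added), by band of Top2a counts in the cell, with 1 point per cell and a line at the median. Medians without the added 10 are 219.4 CPM in the first band, 407 from 100 to under 200 counts and 4222 in the last band, and every band holds cells with few histone counts.

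The types differed in the band where their levels were higher. H1 went from 232.8 CPM at 50 to under 100 counts of Top2a to 651, 1146 and 1992 CPM in the bands above. H2a went from 72.7 to 310, 602 and 1099 CPM. H4 stood at 75.6 and 27.5 CPM up to 200 counts and at 600 and 849 CPM above, and Hist1h4d at 43.2, 16.2, 510.5 and 717 CPM. The 100 to 200 band holds 17 cells, so its order between types is a description of those cells. Hist3h2a ran the other way, with 53.3 and 97.2 CPM in the 2 lowest bands and 17.6, 15.498 and 20.2 CPM in the 3 highest.

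Cells with and without Fgf15 or Mcm5 were also compared within a range of Top2a counts. Cells with 5 or more counts of Fgf15 summed to 2160 CPM of members (54.1% of Tomato- cells). Those that were also Mcm5 or Top2a positive gave 2468 CPM, and the 27 positive for Fgf15 alone gave 315.6 CPM (302.5 to 329.1). Among cells with 100 or more counts of Fgf15, the level was 405 CPM with under 20 counts of Top2a (24 cells), 504 with 20 to 99 (19 cells) and 3457 with 100 or more (79 cells). Among all Tomato- cells with 100 or more counts of Top2a (38.1%) it was 3379 CPM with Fgf15 and 3344 without. Mcm5 split those cells into 3299 CPM (44 cells positive) and 3409 CPM (94 cells). From 200 to under 500 counts of Top2a the level was 2701 CPM with Mcm5 and 2623 without, and 2617 with Fgf15 and 2858 without. From 500 counts upward it was 4543 with Mcm5 and 4087 without, and 4367 with Fgf15 and 3712 without. Under 5 counts of Top2a it was 424 with Mcm5 (12 cells) and 285.2 without, and 370.7 with Fgf15 and 272.2 without.

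Cells with Mcm5 alone were low. The 12 cells with Mcm5 and under 5 counts of Top2a, from 6 title numbers, summed to 424 CPM (400 to 448), and 40.4% of that came from 1 cell. The Top2a class without Mcm5 (49.4% of Tomato- cells) gave 2051 CPM (2037 to 2064), and the 64 with both gave 2387 (2363 to 2410). With Top2a alone against Mcm5 alone, 16 members were at least 2-fold higher, where 17.4% of genes were, and 0 were lower, where 8.01% were. H1 gave 950 and 156.1 CPM, H2a 539 and 70.7, H2b 148.8 and 66.5, and H4 398.2 and 130.2 CPM. All H4 counts of the Mcm5 cells were from Hist1h4d, 58.1% of them in 1 cell. Cell type lists differed between the same classes. Pan-neuronal markers summed to 14508 CPM in the Mcm5 cells and 6232 in the Top2a cells, with 5 of 8 genes at least 2-fold lower with Top2a. Neurogenic precursor genes summed to 74.9 and 1375 CPM, with 7 of 8 higher, and photoreceptor precursor genes to 36.06 and 677.9 CPM, with 6 of 6 higher. The part of these lists in the difference was not tested.

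**Figure D5:**
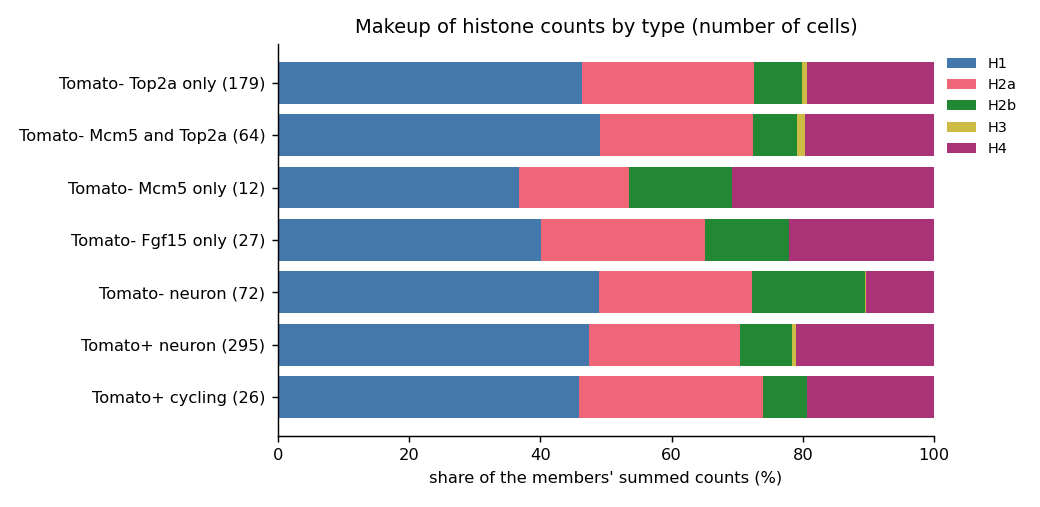
Share of member counts (percent) by histone type, as stacked bars for 7 sets of cells. H1 takes 36.8% in the 12 Tomato- cells with Mcm5 alone, 48.99% in Tomato- neurons and 46.3% in Tomato- cells with Top2a alone, and H4 takes 30.7%, 10.4% and 19.4%.

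Single cells varied widely. Members summed to a median of 205.2 CPM per cell in Tomato+ (highest 2569) and 400 in Tomato- cells (highest 19046). More than 1000 CPM was reached by 7 Tomato+ cells (2.14%), by 30.7% of Tomato- cells and by 94 Tomato- cells with 100 or more counts of Top2a (68.1%). A Tomato+ cell had a median of 1 member at 5 counts and a Tomato- cell 2. The cells with 100 or more counts of Top2a had a median of 7.5, up to 19. The 26 Tomato+ cycling cells summed to 409 CPM (395.1 to 423.7), and 4 of them held 100 or more counts of Top2a. Of these cells 96.2% also passed the neuronal markers, against 68.6% of Tomato- cycling cells. Fgf15 reached 5 counts in 11.5% and 66.3%. The Tomato+ class is thus named by the counting rule only, and whether its cells were in cycle was not tested. The 4 cells with 100 or more counts of Top2a gave 1152 CPM of members and 56.4 CPM of Hist3h2a. Tomato- cells with 100 or more counts gave 3372 and 18.5 CPM. The Top2a levels were not matched above that limit. Of the Hist3h2a counts of the 26 cells, 47.6% came from 1 cell, so these values only describe the 4 cells.

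Some genes that serve the histone supply were also higher in cycling cells. Of 11 histone variants outside the clusters, 6 were at least 2-fold higher in cycling cells than in neurons and 0 lower. Cenpa, the centromeric H3 variant, gave 265.9 and 21.2 CPM, H2afx, the H2A variant phosphorylated at DNA breaks, 223.98 and 18.1, and H1f0, a linker histone of differentiated cells, 512 and 135.5 CPM. Of 14 factors for histone transcription and 3′ ends, 3 were higher and 0 lower: Slbp (45.8 against 11.7 CPM), Eri1, an exonuclease that trims the stem-loop end (65.4 against 21.3), and Npat, the coactivator of these genes (65.7 against 25.1). Of 20 chaperones, 6 were higher and 0 lower, among them Asf1b (70.7 against 4.09 CPM) and the CAF-1 subunit Chaf1b (31.7 against 1.35). Of the cycle genes, 17 of 18 S phase genes and 15 of 15 G2 and mitosis genes were higher. The classes were chosen by Mcm5 and Top2a, which favours this outcome, so it is not an independent measure of the cycle. These lists are read against the 6.64% of all genes above.

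Between the groups, 5 of 11 variants, 1 of 14 factors and 7 of 20 chaperones were at least 2-fold lower in Tomato+ cells, where 4.5% of all genes were, and 0 of the 3 lists' genes were higher. For the factors, 1 of 14 is near that share. Cenpa gave 4.70 CPM in Tomato+ and 186.5 in Tomato- cells, Asf1b 2.28 and 48.5, and Casp8ap2, a component of histone locus bodies, 53.7 and 165.02 CPM. With Mcm5 alone (12 cells), Slbp was at 107.5 CPM against 37.3 with Top2a alone, the reverse of the order of the summed members. By Top2a band of all Tomato- cells, Slbp was at 21.9 CPM under 5 counts. It was at 70.5 CPM from 200 to under 500 counts and 39.5 from 500 upward. The reverse order was thus seen with the 12 cells and not between these bands. Slbp was the only 1 of the 14 factors at least 2-fold higher with Mcm5 alone, where 8.01% of all genes were. With Top2a alone 3 of the 14 were higher, where 17.4% of genes were. Both counts of factors are near those shares. The variant H2afx was at 5.95 CPM with Mcm5 alone against 262.9 with Top2a alone.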

How the data were processed

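The deposited values are counts per gene and cell. Per the submitters' processing notes, Seurat 2.3, R 3.4.4 and mm10 were used. The cell columns are named umi per the file headers, while the aligner, the counting and any collapsing of molecular identifiers are not given in the sources used here. Nonzero values had a median of 16, and 34.4% of them were under 5, so a cell was called positive for a gene at 5 or more counts.

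Cells with over 20% mitochondrial counts were removed (73 Tomato+, 38 Tomato-), 93 gene rows that repeat a symbol (none of a member) were kept as rows of their own, 1 column tied to no sample was not used, 0 cell columns were identical, and no doublet caller was run. Counts were summed per set of cells and given as CPM with exact Poisson intervals, and shares with Clopper-Pearson intervals. With 1 pool per group no test was made. Ratios used log2(CPM + 10), and a gene was counted as higher or lower at 2-fold on that scale. All members could be named. Of each role list, the 3 highest and 3 lowest ratios could be named, if 10% of cells of the higher class held 5 or more counts. The members, lists and cell classes were chosen with earlier results of these data known. Alternatives were a pseudocount of 1 CPM, TMM factors (edgeR 4.0.16), median-of-ratios factors (DESeq2 1.42.0), equal weight per cell, other mitochondrial limits, cells thinned to 94783 counts (33 Tomato+ and 36 Tomato- cells, all shallower, left out), all 70 symbols, other class limits and leaving out each title number. The sums and ratios were tested on simulated data. Python 3.11.15, pandas 2.3.3, scipy 1.17.1 and R 4.3.3 were used. GENCODE M21 and RefSeq gave the annotation and promoters, and no protein sequences were used.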

Additional observations from a re-analysis of the deposited data

Results flagged for a closer look

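In 12 series of 10 title numbers (5 histone types and their sum, in each group), 3 held a value far from the rest by Dixon's criterion at the 95% level, which chance alone meets in about 1 in 20 series. H2b reached 281.67 CPM in title number 18 of the Tomato- cells, where the median was 106.2 CPM, and Hist1h2bj (127.8 CPM), Hist1h2bm (48.4 CPM) and Hist2h2be (34.6 CPM) led it. H3 reached 11.962 CPM in title number 8 of the Tomato+ cells, where 6 of 10 had none, and all 71 counts were from Hist1h3e. Of the H3 counts of all Tomato+ cells, 54.8% came from 1 cell. That cell belongs to title number 8 and supplied most of its H3 counts, so the H3 value there rests mainly on 1 cell. H4 reached 108.216 CPM in title number 10 of the Tomato+ cells, where the median was 55.2 CPM, and Hist1h4d gave 108.05 CPM of it.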

How the results depend on the processing

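Values of the summed members, the types and the counts moved by less than the spread between title numbers, or for counts by less than 1.5 times, in 837 recomputed values, and by more in 27. No ratio past 2-fold changed sign. Between the neurons of both pools, where ratios were near 0, the sign changed under 12 alternatives for all members, 11 for H2a, 5 for H1 and 1 for H3, and 24 single members changed sign under at least 1 alternative. The log2 ratio of all members stayed between -2.47 and -2.18 for Tomato+ against Tomato- cells and between 1.72 and 3.48 for cycling cells against neurons. TMM and median-of-ratios factors moved the first by 0.12 and 0.14.

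With a pseudocount of 1 CPM the H3 ratio was -2.32 (Tomato+ against Tomato-), 4.03 (cycling against neurons), 3.48 (Top2a against Mcm5 alone) and 1.28 (Tomato+ against Tomato- neurons). Members past 2-fold were then 31 lower, 35 higher, 31 higher, and 5 lower with 6 higher, in that order of comparisons. With all 70 symbols H3 was 0.54 for cycling cells against neurons and -0.79 between the neurons, and 3 genes were kept in neurons, the third being Hist2h3c2, a symbol under the 1% threshold (9.98 CPM in Tomato- neurons). A mitochondrial limit of 10% gave 1 member lower in Tomato+ neurons. Thinned cells, and positive cells set at 10 or more counts, each gave 1 member lower with Top2a than with Mcm5 alone.

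With positive cells set at 1 or more counts only 9 Tomato- neurons were left. Cycling cells against neurons then gave 1.72 for all members and 1.55 for H2a, with 1 member lower. Tomato+ against Tomato- neurons gave -0.81 for all members, -0.90 for H2a and 0.51 for H3, with 4 lower and 0 higher, and 5 members were kept: Hist3h2a, Hist3h2ba, Hist1h1b, Hist1h2bm and Hist2h2be. The cause was not tested, beyond the few cells.

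Further definitions of cycling cells were added after seeing the data, 100 or more counts of Mcm5 or Top2a (150 cells) and under 4 neuronal markers (80 cells). Each gave 1 member lower in cycling cells than in neurons.

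Leaving out title number 11 gave 2 members higher in Tomato+ neurons, and leaving out 16 gave 1 member lower with Top2a alone. With title numbers left out, the count kept in neurons ran from 2 to 3: without 12, 15, 18, 19 or 20 Hist1h2bc joined Hist3h2a and Hist3h2ba, as it did with a neuron to cycling ratio of 0.25. Hist3h2a and Hist3h2ba stayed under every alternative run, and the count ran up to 5 at 1 or more counts, as above. No paired analysis was possible because the title numbers of the groups differ and no label ties cells to animals.

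Depth limits the scarce members: 15 had no count in 72 Tomato- neurons, and 3 H3 members carry all H3 values. Cells in a pool are not replicates, so nothing here measures variation between animals.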

Other observations

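Of the genes outside the member list, Hist2h3c2 reached 9.98 CPM in Tomato- neurons although it was counted in only 5 of the 689 retained cells. The 8 Tomato- cells that met none of the class rules summed to 254.5 CPM of members, and 1 of the 8 cells held 64.1% of those counts.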
